A study of Mus musculus with 12 samples.

Results

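The genes described here encode the respiratory chain and the ATP synthase of mitochondria, together with the assembly factors whose names share their prefixes. They were chosen by gene name alone (mt-Nd, mt-Co, mt-Atp, mt-Cytb, Ndufa, Ndufb, Ndufc, Ndufs, Ndufv, Cox4 to Cox8, Atp5, Uqcr and Sdha to Sdhd), and 111 of the 55573 genes in the deposited table matched. Of these, 13 lie in the mitochondrial genome and 98 in the nuclear genome. The nuclear-encoded ones comprise 39 genes named for complex I subunits and 8 complex I assembly factors (the Ndufaf genes). The others are 4 genes of complex II, 8 of complex III, 21 of complex IV and 18 of complex V, the ATP synthase. Ndufa4 and its relative Ndufa4l2 are counted with complex IV, to which Ndufa4 protein belongs. Another 11 names that end in -ps were left out, 4 matched genes are processed pseudogenes by annotation (Cox6c2, Ndufa11b, Ndufb4c and Ndufs6b), and the name Atp5o belongs to 2 identifiers.

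RNA came from mouse embryonic fibroblasts of β-actin-TVA/p53-/- mice. All groups thus lack p53 and carry TVA, the receptor for avian RCAS retroviruses, under the β-actin promoter. The 4 groups, of 3 libraries each, were cells given RCAS-HOXB13 and kept until day 21 in OsteoMAX-XF differentiation medium (HOXB13 day 21), vector cells kept in the same way (vector day 21), cells given RCAS-HOXB13 and taken confluent at day 1 from DMEM with serum (HOXB13 day 1), and vector cells at day 1 (vector day 1). The control virus in the protocols is RCAS-GFP. HOXB13 is a homeobox transcription factor, and by its title the series asks what its excess does in osteogenic differentiation. Day, medium and plate go together in this design and cannot be told apart. Nothing in the labels says that the triplicates were separate animals or cultures, so p-values measure only the spread between these libraries, which may be technical.

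Depth was 13299600 to 15154317 gene reads per library in HOXB13 day 21, 12173173 to 13235707 in vector day 21, 13529964 to 14938139 in HOXB13 day 1 and 11109392 to 13594129 in vector day 1. Hoxb13 averaged 248 ± 8.59 reads per 1000000 (RPM) in HOXB13 day 21 libraries and 0.343 ± 0.197 RPM in vector day 21 libraries, and 327 ± 3.28 RPM in HOXB13 day 1 libraries and 0.375 ± 0.197 RPM in vector day 1 libraries (SD, n = 3 each). Xist, the RNA of the inactive X chromosome, averaged 0.303 RPM in HOXB13 day 21 libraries and 158 RPM in vector day 21 libraries. Ddx3y of the Y chromosome, looked up after values had been seen, averaged 106 RPM in HOXB13 day 21 and 0.13 RPM in vector day 21 libraries. HOXB13 and a difference in sex chromosomes between the cultures therefore cannot be told apart.

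Complexes I to IV pass electrons from NADH and succinate to oxygen, and all but complex II pump protons across the inner membrane as they do so. ATP synthase lets the protons back and makes ATP. Complexes I, III, IV and V are built from proteins of both genomes, complex II from nuclear genes alone. The mitochondrial genome is transcribed from both strands as long precursors that are cut into single messenger RNAs, and of its protein-coding genes mt-Nd6 alone is read from the light strand.

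Not every mitochondrial gene can be read from the deposited values. mt-Co2, mt-Atp8, mt-Atp6, mt-Co3, mt-Nd3 and mt-Nd4l, 6 neighbours between positions 7013 and 10173 of the mitochondrial genome (GRCm38), had 0 reads in all 12 libraries, although mt-Co1 before them had 688767 reads over the 12 libraries and mt-Nd4 after them 119990. At these depths 0 counted reads in a group allow at most 0.0743 RPM in HOXB13 day 21, 0.078 RPM in vector day 21, 0.0614 RPM in HOXB13 day 1 and 0.0793 RPM in vector day 1 (3 reads over a group, counting error only). These limits hold for counted reads alone. They set no ceiling on the RNA of these genes, whose reads may not have been counted. In the reference, a stretch of chromosome 1 on the minus strand holds annotated pseudogene copies of this block. Each copy is identical to its mitochondrial gene over one run, which spans 99.6% of mt-Co2 (in Gm28661), 99.6% of mt-Atp6 (Gm10925), 99.9% of mt-Co3 (Gm28437), 98.3% of mt-Nd3 (Gm28438) and 99% of mt-Nd4l (Gm10222). mt-Atp8 has no annotated copy of its own and lies between mt-Co2 and mt-Atp6. Of these 5 pseudogenes Gm28438 held the most reads, 234 over the 12 libraries. The sources used here do not say how reads with several matches were counted, and the part of that rule in the zeros was not tested.

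The sequence of mt-Nd4l, a small complex I subunit, is shown because it is the most compact example of such a copy. It lies at chrM:9877-10173 on the plus strand (GRCm38), and capitals mark the 294 bases that Gm10222 repeats without a difference.
mt-Nd4l: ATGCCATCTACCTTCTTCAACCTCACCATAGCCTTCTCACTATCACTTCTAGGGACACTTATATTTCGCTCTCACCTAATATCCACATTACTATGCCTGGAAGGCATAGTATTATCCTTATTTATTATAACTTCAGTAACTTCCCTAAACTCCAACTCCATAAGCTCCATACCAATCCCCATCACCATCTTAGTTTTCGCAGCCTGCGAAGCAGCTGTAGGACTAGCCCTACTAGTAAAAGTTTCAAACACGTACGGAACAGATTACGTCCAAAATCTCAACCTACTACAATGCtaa

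mt-Co1, the catalytic subunit of complex IV, keeps reads, and a pseudogene of the same stretch of chromosome 1, Gm29216, repeats its end. The next pair shows where that identical run begins, at chrM:6381-6453 (plus strand) and at chr1:24616125-24616197 (minus strand) in GRCm38. Capitals mark the first 60 bases of an identical run of 479 bases that covers 31% of the gene.
mt-Co1: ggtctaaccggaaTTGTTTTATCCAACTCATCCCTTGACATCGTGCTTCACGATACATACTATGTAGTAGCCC
Gm29216: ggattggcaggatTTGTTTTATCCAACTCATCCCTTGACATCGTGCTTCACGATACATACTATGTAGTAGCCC

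Gm28439 likewise repeats the first 876 bases of mt-Nd4, 63.6% of that gene. Counted over all annotated genes, 51.1% of the 50-base windows of mt-Co1 and 62.2% of those of mt-Nd4 occur elsewhere, against 8.19% for mt-Nd2, 7.61% for mt-Nd5 and 0 for mt-Nd1, mt-Nd6 and mt-Cytb. The part of these copies in the levels of mt-Co1 and mt-Nd4 was not tested. Levels of different genes are compared here only per kilobase. In HOXB13 day 21 libraries mt-Nd1 had 3308 ± 49.9, mt-Cytb 2814 ± 71.1 and mt-Nd6 188 ± 8.85 RPM per kilobase (SD, n = 3 each). In vector day 21 libraries mt-Nd1 had 6086 ± 435, mt-Cytb 3630.1 ± 159.5 and mt-Nd6 165 ± 4.02 RPM per kilobase. The light-strand gene was the lowest of the 3 in both groups.

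**Figure D1:**
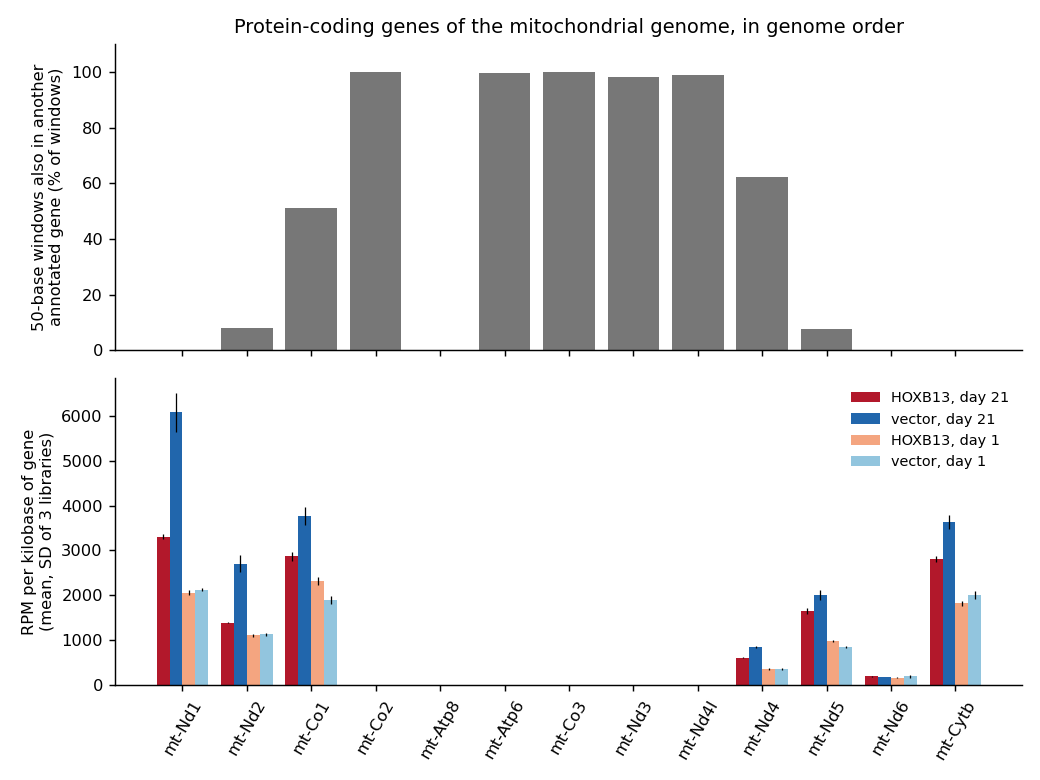
Protein-coding genes of the mitochondrial genome in genome order on the x axis. Upper panel: percent of each gene's 50-base windows that also occur in another annotated gene. Lower panel: mean RPM per kilobase in the 4 groups with SD bars (3 libraries each). The 6 genes from mt-Co2 to mt-Nd4l had 0 reads, and all of them but mt-Atp8 share nearly all of their windows, from 98% for mt-Nd3 to 100% for mt-Co2.

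Of the 111 genes, 94 reached 1 RPM in at least 3 libraries and were tested, 7 of them mitochondrial-encoded and 87 nuclear-encoded. The 17 others were the 6 mitochondrial genes without reads, the 4 processed pseudogenes, Cox4i2, Cox7a1, Cox7b2, Cox8b, Cox8c, Ndufs5 and 1 of the 2 Atp5o identifiers. Fold changes below are log2 differences of RPM + 1 between group means, with standard errors, and a gene was called when its adjusted p in limma (Benjamini-Hochberg over all 13516 genes tested) was under 0.05. Calls were frequent everywhere. Between HOXB13 and vector 72.4% of all tested genes were called at day 21 and 72.5% at day 1, between day 21 and day 1 80.1% in HOXB13 cells and 83.6% in vector cells, and 68.2% in the interaction of virus and day, the difference between the 2 changes over time.

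Mitochondrial messenger RNAs rose less in the HOXB13 cells over the 21 days than in the vector cells, and the rise in HOXB13 cells was absent with quantile normalization. In HOXB13 cells 7 of the 7 tested mitochondrial genes were called higher at day 21 (of all genes 39.5% were called higher and 40.6% lower), with a median log2 change of 0.63 against -0.01 over all genes, but 2 higher and 3 lower with quantile normalization. In vector cells 6 of 7 were called higher and 1 lower (of all genes 41.7% higher and 41.9% lower), with a median of 1.23 against 0.00. At day 21 the HOXB13 cells had less than the vector cells of 6 of the 7 and more of 1 (of all genes 35.1% lower and 37.3% higher), with a median of -0.40 against 0.01. At day 1, 2 were called higher and 2 lower in HOXB13 cells (of all genes 33.9% and 38.5%).

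mt-Nd1, a complex I subunit and the first protein-coding gene of the heavy-strand precursor, had 3115, 3176 and 3209 RPM in HOXB13 day 21 libraries, 6249, 5416 and 5807 RPM in vector day 21 libraries, 2033, 1952 and 1916 RPM in HOXB13 day 1 libraries and 1987, 2051 and 2042 RPM in vector day 1 libraries. The vector day 21 libraries lay far above all others, the HOXB13 day 21 libraries came next, and the day 1 groups overlapped. The log2 change over time was 0.69 ± 0.04 in HOXB13 cells (adjusted p = 1.35e-14) and 1.52 ± 0.04 in vector cells (2.87-fold, adjusted p = 2.36e-21). The HOXB13 value turned to -0.06 with quantile normalization. The interaction was -0.83 ± 0.05 (adjusted p = 7.62e-13). mt-Nd2, its neighbour in complex I, had 1418, 1447 and 1459 RPM in HOXB13 day 21 libraries and 3026, 2649 and 2741 RPM in vector day 21 libraries, a log2 difference of -0.96 ± 0.03 (adjusted p = 2.07e-17). At day 1 its ranges overlapped, with 1169, 1123 and 1131 RPM in HOXB13 day 1 libraries and 1129, 1191 and 1179.5 RPM in vector day 1 libraries.

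mt-Co1 had 4248, 4464 and 4569 RPM in HOXB13 day 21 libraries, 6154, 5544 and 5779 RPM in vector day 21 libraries, 3745, 3496 and 3502 RPM in HOXB13 day 1 libraries and 2777, 3026 and 2969 RPM in vector day 1 libraries. No groups overlapped, and the viruses changed places: HOXB13 differed from vector by -0.40 ± 0.04 in the later libraries (adjusted p = 1.98e-09) and by 0.29 ± 0.04 in the earlier ones (adjusted p = 2.98e-07). mt-Cytb, the only mitochondrial-encoded subunit of complex III, had 3137, 3221 and 3300.1 RPM in HOXB13 day 21 libraries, 4329, 3964 and 4166 RPM in vector day 21 libraries, 2159.6, 2052 and 2034 RPM in HOXB13 day 1 libraries and 2186, 2365 and 2339.6 RPM in vector day 1 libraries. It was lower in HOXB13 than in vector libraries at day 21 without overlap, by -0.37 ± 0.03 (adjusted p = 9.37e-10). The day 1 difference of -0.14 ± 0.03 (adjusted p = 6.75e-04) turned positive under other scalings, to 0.07 without the authors' scaling factors (TMM, the trimmed mean of M-values), 0.47 with quantile normalization and 0.08 with scaling to nuclear-encoded reads.

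mt-Nd4 and mt-Nd5, further complex I subunits, had smaller gaps between the viruses at day 21 than mt-Nd1. At day 21 mt-Nd4 had 808 to 851 RPM in HOXB13 libraries and 1129.5 to 1200.3 RPM in vector libraries, a log2 difference of -0.47 ± 0.04. mt-Nd5 had 2917 to 3131 RPM in HOXB13 day 21 libraries and 3473 to 3893 RPM in vector day 21 libraries, a difference of -0.29 ± 0.04. Neither pair of ranges overlapped. At day 1 mt-Nd4 had 459 to 507 RPM in HOXB13 libraries and 459.7 to 509.6 RPM in vector libraries, which overlapped. mt-Nd5 had 1743 to 1806 RPM in HOXB13 day 1 libraries and 1479.9 to 1569 RPM in vector day 1 libraries and was called higher (0.20 ± 0.04, adjusted p = 2.21e-05).

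The light-strand gene mt-Nd6 had 97.7, 102 and 92.9 RPM in HOXB13 day 21 libraries, 83.7, 85.7 and 87.8 RPM in vector day 21 libraries, 89.8, 79.6 and 72 RPM in HOXB13 day 1 libraries and 80.6, 105 and 105 RPM in vector day 1 libraries. The vector ranges of the 2 days overlapped, as did the ranges of the viruses at day 1. In vector cells its change over time was -0.16 ± 0.07 (adjusted p = 0.0477), and that call was lost in 9 of the 12 fits that leave out 1 library, whose values ran from -0.29 to -0.10. At day 21 the difference between HOXB13 and vector was 0.18 ± 0.07 (adjusted p = 0.0319), a call lost without replicate 1 or 2 of either day 21 group (0.18, 0.15, 0.17 and 0.18). The interaction for mt-Nd6 was 0.44 ± 0.11 (adjusted p = 7.94e-04), opposite in sign to the 6 others, and 0.16 without the TMM factors (adjusted p = 0.187).

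Shares within a library do not depend on its scaling. Of the reads of the mitochondrial-encoded genes, mt-Nd6 made up 0.604 ± 0.0389% in HOXB13 day 21, 0.366 ± 0.0264% in vector day 21, 0.724 ± 0.0585% in HOXB13 day 1 and 0.917 ± 0.103% in vector day 1 libraries (SD, n = 3 each). Set against mt-Nd5, which overlaps it at one end on the other strand, mt-Nd6 came to 3.27 ± 0.274% in HOXB13 day 21, 2.34 ± 0.171% in vector day 21, 4.56 ± 0.42% in HOXB13 day 1 and 6.29 ± 0.732% in vector day 1 libraries. Both shares were lower at day 21 than at day 1 with either virus, and lowest in vector day 21.

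**Figure D2:**
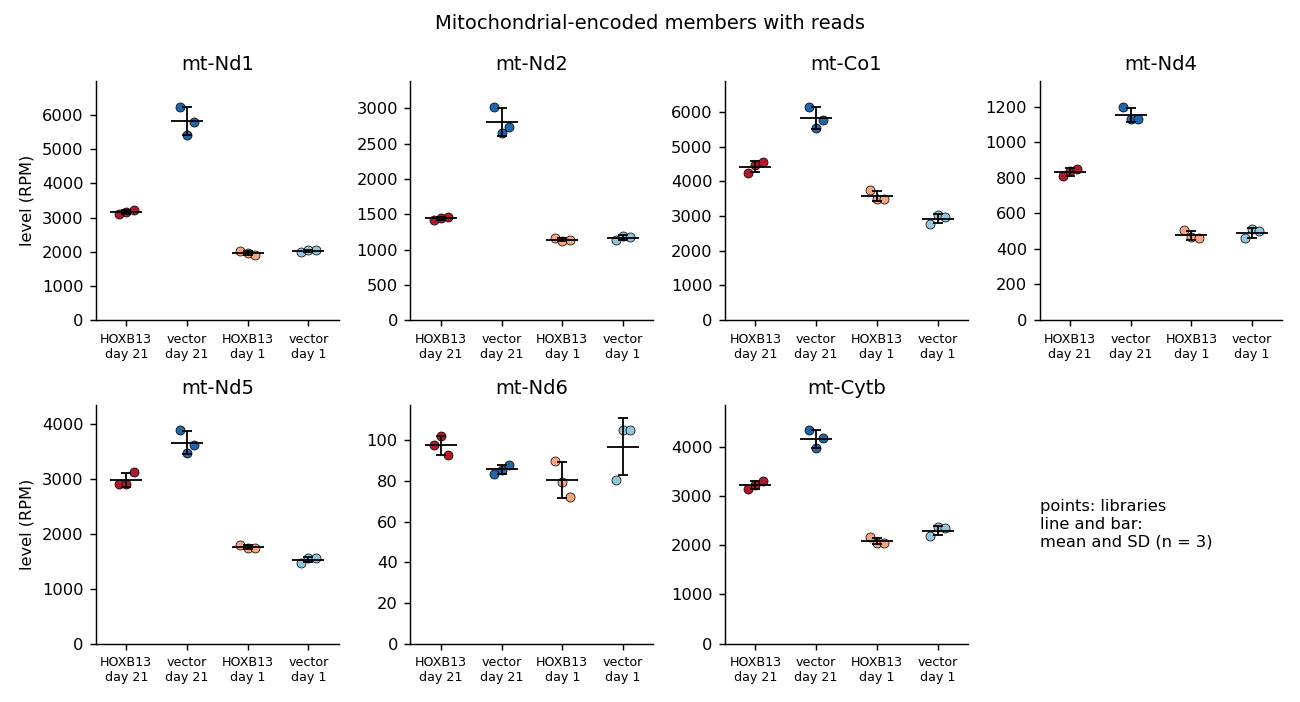
Level in RPM (y axis, from 0) of the 7 mitochondrial-encoded genes with reads, in each library of the 4 groups (x axis); points are libraries, lines and bars the mean and SD of 3. The vector day 21 libraries are the highest for all of these genes except mt-Nd6, for which they lie at 83.7 to 87.8 RPM.

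The heavy-strand genes also moved unequally among themselves. The ratio of mt-Nd1 to mt-Cytb reads, genes that share no window with another gene, was 0.984 ± 0.0104 in HOXB13 day 21, 1.4 ± 0.0392 in vector day 21, 0.945 ± 0.00541 in HOXB13 day 1 and 0.883 ± 0.0229 in vector day 1 libraries (SD, n = 3 each). The vector day 21 libraries, at 1.37 to 1.44, stood apart from the 9 others, at 0.867 to 0.993.

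The balance of the 2 genomes was taken within each library as the reads of mitochondrial-encoded genes over those of nuclear-encoded subunits. It is a ratio of reads, not of molecules, and only its change between groups is read. It was 2.71, 2.78 and 2.83 in HOXB13 day 21 libraries, 4.04, 3.52 and 3.7 in vector day 21 libraries, 1.77, 1.69 and 1.69 in HOXB13 day 1 libraries and 1.58, 1.73 and 1.72 in vector day 1 libraries. The day 1 groups overlapped, and the day 21 groups lay above them without overlapping each other. The summed level of the mitochondrial-encoded genes was 16174 ± 435 RPM in HOXB13 day 21, 23514 ± 1344 RPM in vector day 21, 11093 ± 360.2 RPM in HOXB13 day 1 and 10537 ± 382 RPM in vector day 1 libraries. That of the nuclear-encoded subunits was 5835 ± 23.1 RPM in HOXB13 day 21, 6270.5 ± 80.6 RPM in vector day 21, 6449.9 ± 39.7 RPM in HOXB13 day 1 and 6286 ± 78.6 RPM in vector day 1 libraries, a narrower spread between groups. In bulk RNA, fewer cells of a type and less RNA per cell cannot be told apart.

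In complex I the ratio was 5.02 ± 0.0497 in HOXB13 day 21, 6.94 ± 0.586 in vector day 21, 3.21 ± 0.0456 in HOXB13 day 1 and 3.32 ± 0.157 in vector day 1 libraries. In complex III it was 6.14 ± 0.175 in HOXB13 day 21, 7.23 ± 0.433 in vector day 21, 3.77 ± 0.0939 in HOXB13 day 1 and 4.18 ± 0.213 in vector day 1 libraries. In complex IV, with mt-Co1 as its only mitochondrial gene with reads, it was 4.11 ± 0.171 in HOXB13 day 21, 5.17 ± 0.327 in vector day 21, 3.66 ± 0.134 in HOXB13 day 1 and 3.08 ± 0.185 in vector day 1 libraries. The mean was highest in vector day 21 in each of the 3 complexes, while the mean of HOXB13 day 1 lay below that of vector day 1 in complexes I and III and above it in complex IV. Complex V gives no ratio, since both of its mitochondrial genes had 0 reads.

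**Figure D3:**
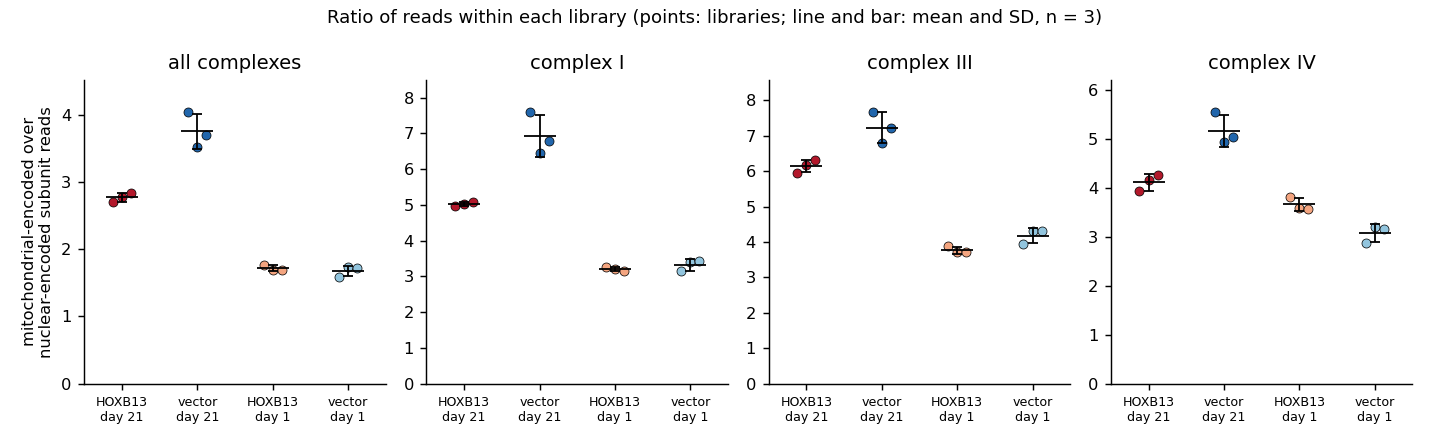
Reads of mitochondrial-encoded genes divided by reads of nuclear-encoded subunits (y axis, from 0) in each library of the 4 groups, for all complexes and for complexes I, III and IV; lines and bars are the mean and SD of 3 libraries. Over all complexes the HOXB13 day 21 libraries (2.71 to 2.83) lie below the vector day 21 libraries (3.52 to 4.04), and both lie above day 1 (1.58 to 1.77).

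Nuclear-encoded genes moved in both directions. Their median change was smaller in size than that of the mitochondrial genes in each comparison except HOXB13 against vector at day 1. Single nuclear-encoded genes ranged more widely there, from -1.10 to 1.42, against -0.26 to 0.29 for the mitochondrial genes. Between HOXB13 and vector at day 21, 10 of 87 were called higher and 39 lower (of all genes 37.3% and 35.1%). The median log2 difference was -0.12. At day 1, 35 were called higher and 16 lower (of all genes 33.9% and 38.5%). The median was 0.05 against -0.03 over all genes. Over time in HOXB13 cells 28 rose and 31 fell, with a median of -0.01 (of all genes 39.5% rose and 40.6% fell). In vector cells 47 rose and 21 fell, with a median of 0.16 (of all genes 41.7% rose and 41.9% fell). In the interaction 9 were called higher and 43 lower (of all genes 36.6% and 31.7%), with a median of -0.18 against 0.03 over all genes. Of the mitochondrial genes, 1 was called higher and 6 lower there.

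These splits depend on how libraries are scaled. The TMM factors set the effective size of HOXB13 day 21 libraries to 0.956 of their reads and that of HOXB13 day 1 libraries to 1.15. Without these factors the median of all genes moved to -0.05 between the viruses at day 21, 0.15 at day 1, -0.25 over time in HOXB13 cells, 0.02 in vector cells and -0.23 in the interaction. Of all genes the shares called higher and lower were then 32.1% and 40.6% at day 21, 49.4% and 24.2% at day 1, 28.5% and 54.4% over time in HOXB13 cells, 42.5% and 40.8% in vector cells, and 20.8% and 50.7% in the interaction. The nuclear-encoded genes split in the same fits into 63 higher and 8 lower at day 1, 12 higher and 56 lower over time in HOXB13 cells, and 2 higher and 71 lower in the interaction. With libraries scaled to their nuclear-encoded reads the shares of all genes called higher and lower were 31.2% and 41.7% at day 21, 49.6% and 24% at day 1, 28.6% and 54% over time in HOXB13 cells, 43.4% and 39.9% in vector cells, and 20% and 51.7% in the interaction, and the splits of the nuclear-encoded genes were 6 higher and 53 lower at day 21, 63 higher and 8 lower at day 1, 13 higher and 55 lower over time in HOXB13 cells and 2 higher and 71 lower in the interaction. With quantile normalization the shares of all genes were 37.4% and 35.5% at day 21, 34.3% and 36.6% at day 1, 35.9% and 45.1% over time in HOXB13 cells, 38.1% and 45.7% in vector cells, and 34.5% and 32.5% in the interaction. Of the mitochondrial genes, 5 higher and 0 lower at day 1 were called without the TMM factors, 6 higher and 0 lower with quantile normalization and 6 higher and 0 lower with scaling to nuclear-encoded reads. At day 21 the split was 0 higher and 6 lower under each of these 3 scalings, and over time in vector cells it was 6 higher and 0 lower. In the interaction it was 0 higher and 6 lower without the TMM factors and with scaling to nuclear-encoded reads.

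**Figure D4:**
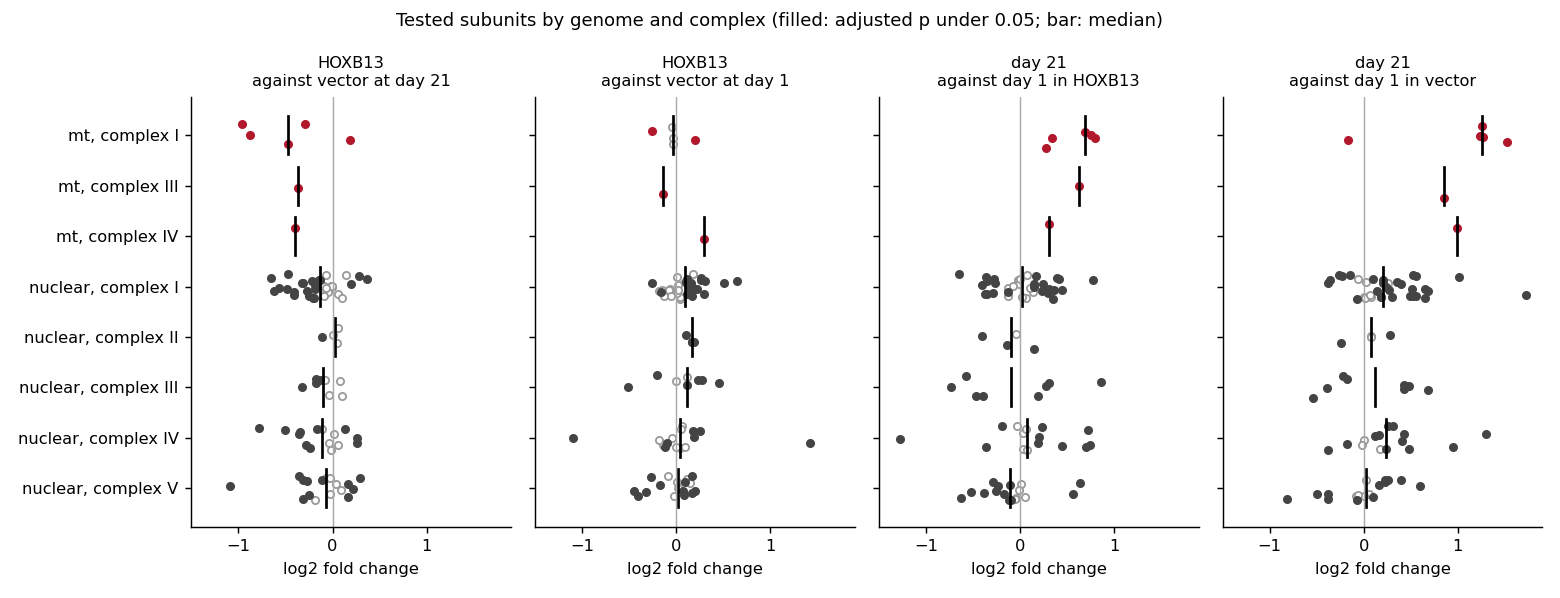
Log2 fold change (x axis, scale of RPM + 1) of each tested subunit, by genome and complex (y axis), in 4 comparisons; filled points were called, open points were not, and bars are medians. Mitochondrial genes lie mostly left of 0 between the viruses at day 21 (median -0.40) and right of 0 over time (medians 0.63 in HOXB13 cells, a rise absent with quantile normalization, and 1.23 in vector cells), while the nuclear-encoded genes spread around 0.

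Complex I, the entry for NADH, had 35 of its 39 matched nuclear-encoded genes tested. The 39 include the processed pseudogenes Ndufa11b, Ndufb4c and Ndufs6b, which were not tested. Over time in HOXB13 cells 13 of the 35 rose and 10 fell (of all genes 39.5% and 40.6%). Without the TMM factors 5 rose and 22 fell (of all genes 28.5% and 54.4%). In vector cells, with these factors, 22 rose and 6 fell (of all genes 41.7% and 41.9%). The 7 nuclear-encoded core subunits carry the flavin and the iron-sulfur clusters. Of these, 1 was called higher and 4 lower in HOXB13 than in vector libraries at day 21. Of the 28 tested accessory subunits 2 were higher and 14 lower. Of all genes 37.3% were called higher and 35.1% lower at that day. In the interaction 21 of the 35 were called lower and 0 higher, with a median of -0.24, and 32 were lower and 0 higher without the TMM factors. Of all genes 31.7% were called lower and 36.6% higher in the interaction, and 50.7% lower and 20.8% higher without these factors.

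Ndufv3, a small accessory subunit bound to the NADH-oxidizing arm, had the largest rise in vector cells among nuclear-encoded genes with at least 5 RPM in the higher group. It had 59.7, 62.7 and 63.9 RPM in HOXB13 day 21 libraries, 96.2, 95.8 and 102 RPM in vector day 21 libraries, 36.3, 35 and 35.8 RPM in HOXB13 day 1 libraries and 30.4, 30.8 and 26 RPM in vector day 1 libraries. No groups overlapped. It rose by 0.78 ± 0.05 in HOXB13 cells and by 1.72 ± 0.05 in vector cells, and the interaction was -0.94 ± 0.08 (adjusted p = 1.50e-10).

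Ndufa6, an accessory subunit of the matrix arm, had 55.5, 56.5 and 62.2 RPM in HOXB13 day 21 libraries, 81.9, 88.5 and 90.1 RPM in vector day 21 libraries, 47, 46.3 and 47.5 RPM in HOXB13 day 1 libraries and 47.3, 41.1 and 39.1 RPM in vector day 1 libraries. The day 1 groups overlapped and the vector day 21 libraries were the highest. It rose by 1.02 ± 0.06 in vector cells, and the interaction was -0.72 ± 0.08 (adjusted p = 4.63e-08). Ndufa5, another matrix-arm subunit, averaged 22.4 ± 2.26 RPM in HOXB13 day 21, 34.9 ± 0.191 in vector day 21, 35.5 ± 1.68 in HOXB13 day 1 and 31.6 ± 1.11 RPM in vector day 1 libraries (SD, n = 3 each). HOXB13 day 21 stood apart as the lowest, with a log2 difference from vector of -0.62 ± 0.06 at that day (adjusted p = 5.93e-09). Ndufa13 and Ndufa3, further accessory subunits, were higher in HOXB13 than in vector libraries at day 1, by 0.51 ± 0.04 for Ndufa13 and 0.64 ± 0.07 for Ndufa3. At day 21 Ndufa3 was higher again (0.36 ± 0.07, adjusted p = 5.86e-05), while Ndufa13 averaged 82 ± 2.04 RPM in HOXB13 and 82.7 ± 3.82 RPM in vector libraries and was not called.

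The Ndufaf genes encode assembly factors, which help to build complex I and are not part of the finished complex. Of the 8, 3 rose and 3 fell over time in vector cells (of all genes 41.7% and 41.9%). Ndufaf2 had 9.94, 11.7 and 9.05 RPM in HOXB13 day 21 libraries, 8.07, 9.45 and 8.88 RPM in vector day 21 libraries, 14.1, 13.6 and 12.6 RPM in HOXB13 day 1 libraries and 18.5, 18.2 and 21 RPM in vector day 1 libraries. Its day 21 groups overlapped, and in vector cells it fell by 1.05 on the log2 scale (standard error 0.10, adjusted p = 5.42e-10). Ndufaf4 fell in vector cells by 0.60, while Ndufaf3 and Ndufaf7 rose there by 0.89 ± 0.12 for Ndufaf3 and 0.79 ± 0.07 for Ndufaf7. Ndufaf1 was lower in HOXB13 than in vector libraries on both days, at 8.05 ± 0.455 RPM against 15.3 ± 0.776 RPM at day 21 and 6.92 ± 0.559 RPM against 10.1 ± 0.126 RPM at day 1.

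The 4 complex II genes encode succinate dehydrogenase, which is also an enzyme of the citric acid cycle. All 4 were called higher in HOXB13 than in vector libraries at day 1, by 0.10 to 0.19 on the log2 scale. Of all genes 33.9% were called higher at day 1, and 49.4% without the TMM factors. Sdha, the flavin-carrying subunit, had 148, 147 and 151 RPM in HOXB13 day 21 libraries, 152, 147 and 145 RPM in vector day 21 libraries, 198, 198 and 194 RPM in HOXB13 day 1 libraries and 174, 174 and 178 RPM in vector day 1 libraries. The day 21 groups overlapped and lay below both day 1 groups, which did not overlap. Sdhb is the iron-sulfur subunit, and Sdhc and Sdhd are the membrane anchors. At day 21, where 72.4% of all genes were called, only Sdhd of the 4 genes was called (-0.11 ± 0.04). That call was lost without HOXB13 day 21 replicate 1 (-0.08, adjusted p = 0.0941), and the day 1 call of Sdhd (0.10 ± 0.04) was lost in 3 fits, without HOXB13 day 1 replicate 1 or 3 or vector day 1 replicate 3 (0.08 to 0.10).

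In complex III, 4 rose and 4 fell of the 8 nuclear-encoded genes over time in HOXB13 cells (of all genes 39.5% and 40.6%). In vector cells 4 rose and 4 fell (of all genes 41.7% and 41.9%). Uqcrq, a small subunit of the complex, had 122, 127 and 127 RPM in HOXB13 day 21 libraries, 133, 145 and 133 RPM in vector day 21 libraries, 69.5, 67.8 and 68.9 RPM in HOXB13 day 1 libraries and 95.5, 96.9 and 103 RPM in vector day 1 libraries. No groups overlapped, and HOXB13 day 1 was the lowest. It rose by 0.86 ± 0.04 in HOXB13 cells, and at day 1 it differed between HOXB13 and vector by -0.51 ± 0.04 (adjusted p = 2.33e-11). The interaction of 0.38 ± 0.05 was 0.10 without the TMM factors (adjusted p = 0.11). Uqcrfs1, the Rieske iron-sulfur protein, fell by 0.73 in HOXB13 cells and by 0.54 in vector cells. Uqcrc1, a core protein, fell by 0.57 in HOXB13 cells and by 0.39 in vector cells. Uqcrh, the hinge protein, averaged 76.4 ± 2.92 RPM in HOXB13 day 1 and 55.3 ± 0.44 RPM in vector day 1 libraries, and 87.6 ± 2.82 RPM in HOXB13 day 21 and 89.7 ± 3 RPM in vector day 21 libraries.

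Complex IV, the step that reduces oxygen, has subunits with tissue isoforms. Of its 15 tested nuclear-encoded genes, 7 rose and 3 fell in HOXB13 cells (of all genes 39.5% and 40.6%). That split became 4 and 8 without the TMM factors (of all genes 28.5% and 54.4%). In vector cells, with these factors, 10 rose and 2 fell (of all genes 41.7% and 41.9%). The widely expressed forms Cox4i1, Cox6a1, Cox6b1, Cox7a2, Cox7b, Cox8a and Ndufa4 and the related Cox7a2l, which takes part in joining complexes III and IV, had at least 28.2 RPM in every library, the lowest being Cox7a2l. Cox7a2l had 48.3, 49.7 and 46.9 RPM in HOXB13 day 21 libraries, 59.1, 62.8 and 62.8 RPM in vector day 21 libraries, 29.2, 28.9 and 28.2 RPM in HOXB13 day 1 libraries and 31.5, 29.2 and 33.4 RPM in vector day 1 libraries. It rose by 0.73 ± 0.05 in HOXB13 cells and 0.95 ± 0.05 in vector cells, and the day 21 groups did not overlap.

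The isoforms known from particular tissues were at low levels. Cox6a2, the heart and skeletal muscle form, had 0.834, 0.857 and 0.835 RPM in HOXB13 day 21 libraries, 1.79, 2.47 and 2.26 RPM in vector day 21 libraries, 0.175, 0.0649 and 0.0615 RPM in HOXB13 day 1 libraries and 1.18, 1.19 and 1.72 RPM in vector day 1 libraries. HOXB13 lay below vector on both days without overlap (log2 differences of -0.78 ± 0.13 at day 21 and -1.10 ± 0.13 at day 1). Only vector libraries reached 1 RPM, so Cox6a2 passed the filter through the groups where it was high. Its differences are therefore a description and not a test. Cox6b2, a testis form, averaged 0.275 ± 0.0572 RPM in HOXB13 day 21, 0.317 ± 0.211 in vector day 21, 2.09 ± 0.11 in HOXB13 day 1 and 0.16 ± 0.15 RPM in vector day 1 libraries. Cox7a1, another muscle form, averaged 1.02 ± 0.244 RPM in vector day 21 libraries and at most 0.271 RPM in the other groups, and was not tested. Ndufa4l2, a relative of Ndufa4 induced by low oxygen, averaged 0.792 ± 0.168 RPM in HOXB13 day 21, 1.53 ± 0.102 in vector day 21, 0.0992 ± 0.12 in HOXB13 day 1 and 0.0247 ± 0.0429 RPM in vector day 1 libraries. Cox4i2, the lung form, averaged 0.103 to 0.261 RPM over the groups and was not tested. Of the 11 striated muscle genes looked at, 2 reached 1 RPM in at least 3 libraries, while Ckm, Myod1 and Myog had no read in any group. All 11 summed to 0.39 to 0.607 RPM in HOXB13 day 21, 0.156 to 0.525 in vector day 21, 17.6 to 19.5 in HOXB13 day 1 and 15.1 to 18.1 RPM in vector day 1 libraries.

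**Figure D5:**
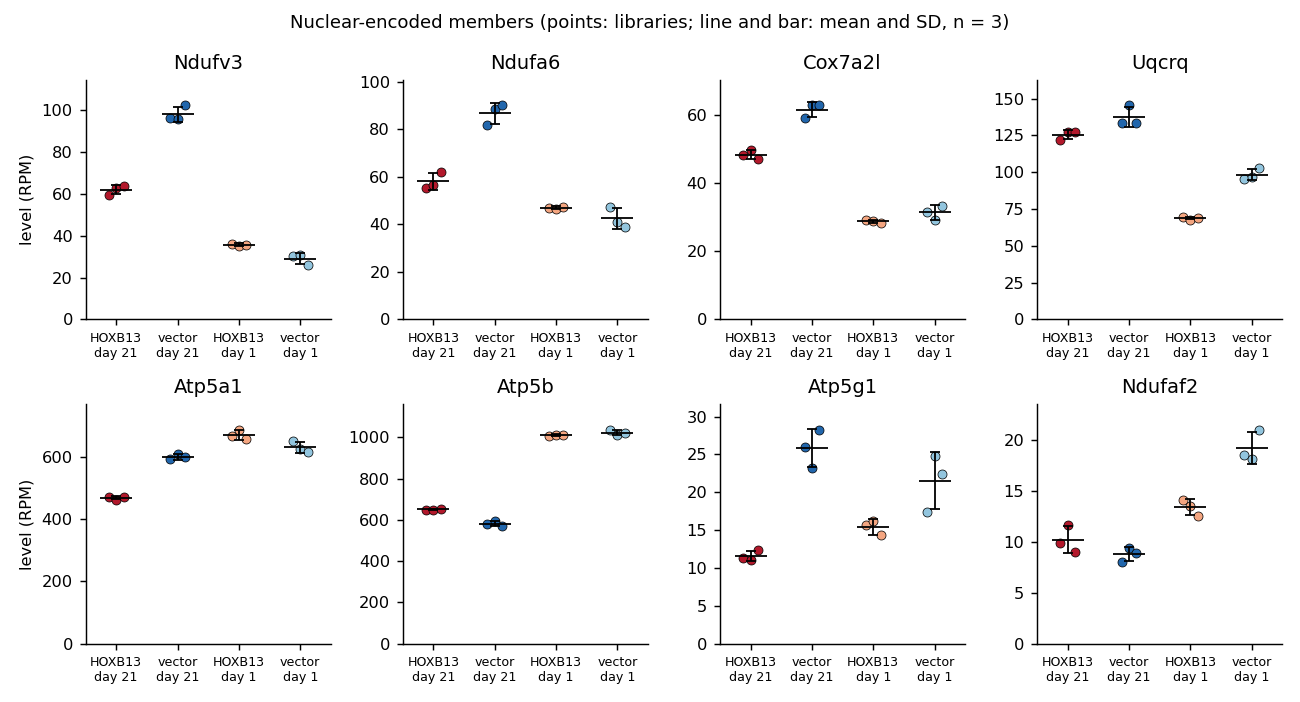
Level in RPM (y axis, from 0) of 8 nuclear-encoded genes in each library of the 4 groups; lines and bars are the mean and SD of 3 libraries. Ndufv3, Ndufa6 and Cox7a2l are highest in vector day 21, Atp5a1 is lowest in HOXB13 day 21, and Atp5b is lower at day 21 than at day 1 with both viruses.

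In complex V, 2 rose and 10 fell of the 17 tested genes in HOXB13 cells (of all genes 39.5% and 40.6%). In vector cells 7 rose and 5 fell (of all genes 41.7% and 41.9%). Without the TMM factors 28.5% of all genes rose and 54.4% fell in HOXB13 cells. The catalytic head of complex V, F1, consists of 5 nuclear-encoded proteins. Of these 1 rose and 4 fell in HOXB13 cells, and 1 rose and 4 fell in vector cells. Atp5b, the catalytic β subunit, had 649, 651 and 655 RPM in HOXB13 day 21 libraries, 582, 593 and 569 RPM in vector day 21 libraries, 1005, 1014 and 1012 RPM in HOXB13 day 1 libraries and 1037, 1012 and 1021 RPM in vector day 1 libraries. It fell by 0.63 in HOXB13 cells (adjusted p = 1.01e-17) and by 0.81 in vector cells (adjusted p = 6.51e-20) on the log2 scale. Atp5a1, the α subunit that forms the ring of F1 with β, had 470.1, 463 and 472 RPM in HOXB13 day 21 libraries, 592, 608 and 598 RPM in vector day 21 libraries, 667, 687 and 656 RPM in HOXB13 day 1 libraries and 649.8, 624 and 617 RPM in vector day 1 libraries. At day 21 HOXB13 differed from vector in opposite directions for the 2 partners, by -0.35 ± 0.03 for Atp5a1 and 0.16 ± 0.02 for Atp5b, each without overlap of libraries. Atp5d, the δ subunit, differed by 0.30 ± 0.03 at day 21. Atp5e, the ε subunit, was the F1 gene that rose, by 0.57 ± 0.05 in HOXB13 cells and 0.59 ± 0.05 in vector cells.

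The c subunit, whose ring turns with the proton flow, is encoded by 3 genes that make the same mature protein. Atp5g1 had 11.4, 11.1 and 12.4 RPM in HOXB13 day 21 libraries, 25.9, 23.2 and 28.3 RPM in vector day 21 libraries, 15.7, 16.3 and 14.3 RPM in HOXB13 day 1 libraries and 17.4, 24.8 and 22.4 RPM in vector day 1 libraries. HOXB13 lay below vector without overlap on both days, with log2 differences of -1.08 ± 0.10 (adjusted p = 9.02e-10) for the day 21 libraries and -0.44 ± 0.10 (adjusted p = 3.60e-04) for those of day 1. Its change of 0.26 ± 0.10 in vector cells lost its call without vector day 1 replicate 1 (0.12, adjusted p = 0.22) and without vector day 21 replicate 3 (0.19, adjusted p = 0.107). Atp5g3 averaged 164 ± 4.77 RPM in HOXB13 day 21, 159.9 ± 2.02 in vector day 21, 200.4 ± 3.88 in HOXB13 day 1 and 226 ± 6.13 RPM in vector day 1 libraries, and fell over time with both viruses. Atp5g2 averaged 2.76 to 3.26 RPM over the groups and was not called in any comparison. As a share of the reads of the 3 genes, Atp5g1 was 6.5 ± 0.524% in HOXB13 day 21, 13.7 ± 1.3% in vector day 21, 7.06 ± 0.511% in HOXB13 day 1 and 8.6 ± 1.44% in vector day 1 libraries. These shares are uncertain, since 66% of the 50-base windows of Atp5g1 and 100% of those of Atp5g2 occur in other annotated genes.

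The genes Ndufa1 and Ndufb11 of complex I and Cox7b of complex IV lie on the X chromosome. Ndufa1, an accessory subunit, averaged 25.5 ± 1.38 RPM in HOXB13 day 21, 36 ± 2.83 in vector day 21, 23.1 ± 1.22 in HOXB13 day 1 and 22.5 ± 0.861 RPM in vector day 1 libraries. Ndufb11, another accessory subunit, averaged 45.1 ± 1.1 RPM in HOXB13 day 21, 60 ± 1.31 in vector day 21, 45.9 ± 1.74 in HOXB13 day 1 and 42.2 ± 1.54 RPM in vector day 1 libraries. Cox7b averaged 72.7 ± 2.64 RPM in HOXB13 day 21, 81.6 ± 3.32 in vector day 21, 71.1 ± 1.62 in HOXB13 day 1 and 68 ± 1.14 RPM in vector day 1 libraries. All 3 were called lower in HOXB13 than in vector libraries at day 21, by 0.16 to 0.48 on the log2 scale, and none of the 3 was called over time in HOXB13 cells. Over all 454 tested genes of the X chromosome, 104 were called higher and 229 lower at day 21 (of all genes 37.3% and 35.1%), with a median of -0.17 against 0.01 over all genes. At day 1, 163 were called higher and 179 lower (of all genes 33.9% and 38.5%), with a median of -0.03 against -0.03, and of the 3 respiratory genes 1 was called higher and 0 lower. Xist averaged 0.332 RPM in HOXB13 day 1 and 427 RPM in vector day 1 libraries, a wider gap than at day 21. The part of the X chromosome difference between the cultures in these values was not tested.

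RefSeq promoter windows (GRCm38.p6, 250 bases before to 50 after the start) were found for 76 of the genes, 81 windows in all. Promoters of respiratory genes are known for sites of NRF1, which binds a palindrome that holds the letters GCATGCGC. On either strand these letters occurred in 14.8% of the windows and in 2.71% of all 32851 windows of the same length. The letters AAGATGGC, of YY1, occurred in 13.6% against 2.75%. TCAAGGTCA, of ERR receptors, occurred in 2.47% against 0.423%, and CCGGAAGT, of ETS factors, in 6.17% against 3.89%. Ndufa6, which rose in vector cells, and Uqcrc1, which fell with both viruses, are 2 of the 12 genes with the NRF1 letters and are shown because they moved in opposite directions. Capitals mark the letters, on both strands and overlapping in Uqcrc1. The stretches lie at chr15:82354327-82354414 (minus strand) and chr9:108936638-108936697 (plus strand).
Ndufa6 promoter: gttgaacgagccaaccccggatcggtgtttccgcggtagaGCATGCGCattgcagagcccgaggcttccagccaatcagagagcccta
Uqcrc1 promoter: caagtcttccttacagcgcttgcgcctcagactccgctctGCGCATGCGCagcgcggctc

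Other genes of the pathway are counted here beside all tested genes, of which 39.5% rose and 40.6% fell in HOXB13 cells and 41.7% rose and 41.9% fell in vector cells. Of 17 tested genes for mitochondrial DNA maintenance and transcription, 5 rose and 6 fell in HOXB13 cells and 5 rose and 5 fell in vector cells. Neither share exceeded that over all genes with either virus. Polrmt, the mitochondrial RNA polymerase, averaged 25.8 RPM in HOXB13 day 21, 20.3 in vector day 21, 40.3 in HOXB13 day 1 and 36.7 RPM in vector day 1 libraries. Tfam, which packs mitochondrial DNA and starts its transcription, averaged 32.4 RPM in HOXB13 day 21, 27.9 in vector day 21, 37.8 in HOXB13 day 1 and 48.4 RPM in vector day 1 libraries, with a log2 change of -0.77 ± 0.05 in vector cells. Of 19 genes for mitochondrial RNA processing and stability, 2 rose and 14 fell in HOXB13 cells and 2 rose and 15 fell in vector cells. Pnpt1, a ribonuclease of mitochondria, averaged 27 RPM in HOXB13 day 21, 39.1 in vector day 21, 54.1 in HOXB13 day 1 and 55 RPM in vector day 1 libraries. Grsf1, a protein of mitochondrial RNA granules, was lower in HOXB13 libraries on both days, averaging 77 RPM in HOXB13 day 21, 104 in vector day 21, 79.2 in HOXB13 day 1 and 140.2 RPM in vector day 1 libraries. Of 77 mitochondrial ribosomal protein genes, 15 rose and 36 fell in HOXB13 cells and 13 rose and 46 fell in vector cells. Mrpl9, of the large subunit, averaged 29.1 RPM in HOXB13 day 21, 53.9 in vector day 21, 36.5 in HOXB13 day 1 and 75.1 RPM in vector day 1 libraries.

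Among 14 tested regulators of mitochondrial biogenesis, 9 were called higher and 2 lower in HOXB13 than in vector libraries at day 21 (of all genes 37.3% and 35.1%). Ppargc1a, the coactivator PGC-1α, averaged 0.322 RPM in HOXB13 day 21, 3.58 in vector day 21, 1.05 in HOXB13 day 1 and 0.585 RPM in vector day 1 libraries. Its interaction of -2.16 ± 0.18 (adjusted p = 3.21e-10) ranged from -4.33 to -0.95 over the other settings. Of 40 assembly factors outside the name rule, 18 rose and 8 fell in HOXB13 cells and 18 rose and 10 fell in vector cells, the HOXB13 split turning to 8 and 17 without the TMM factors (of all genes 28.5% and 54.4%). Tmem70, an assembly factor of ATP synthase, was lower in HOXB13 libraries on both days, averaging 18 RPM in HOXB13 day 21, 33.3 in vector day 21, 21.1 in HOXB13 day 1 and 59.5 RPM in vector day 1 libraries. Of 22 genes for electron carriers and adenine nucleotide transport, 8 rose and 9 fell in HOXB13 cells and 6 rose and 10 fell in vector cells. In HOXB13 cells these shares were close to those over all genes, 39.5% and 40.6%. Etfdh, which feeds electrons from fatty acid oxidation to ubiquinone, averaged 63.4 RPM in HOXB13 day 21, 94.3 in vector day 21, 52.3 in HOXB13 day 1 and 47.5 RPM in vector day 1 libraries.

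Of 18 genes of the citric acid cycle and pyruvate dehydrogenase, 5 were higher and 13 lower in HOXB13 than in vector libraries at day 21, against 37.3% and 35.1% of all genes. Over time 2 rose and 13 fell in HOXB13 cells and 6 rose and 8 fell in vector cells. Cs, citrate synthase, averaged 209 RPM in HOXB13 day 21, 178 in vector day 21, 314 in HOXB13 day 1 and 329 RPM in vector day 1 libraries. Idh3a, a subunit of isocitrate dehydrogenase, averaged 59.3 RPM in HOXB13 day 21, 65.2 in vector day 21, 115 in HOXB13 day 1 and 172 RPM in vector day 1 libraries. Both were lower at day 21 than at day 1 with either virus. Of 14 tested genes that respond to low oxygen, 9 rose and 3 fell in HOXB13 cells (of all genes 39.5% and 40.6%). In vector cells 6 rose and 8 fell (of all genes 41.7% and 41.9%). Between HOXB13 and vector, 8 were higher and 3 lower at day 21 (of all genes 37.3% and 35.1%). At day 1, 3 were higher and 8 lower (of all genes 33.9% and 38.5%). In the interaction 9 were higher and 1 lower (of all genes 36.6% and 31.7%). Vegfa, the vascular growth factor, was lower in HOXB13 than in vector libraries on both days. Its averages were 190.0 RPM in HOXB13 and 508 RPM in vector libraries at day 21. At day 1 they were 56.5 RPM in HOXB13 and 212 RPM in vector libraries.

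Sums of marker genes for cell types differed between the groups. A change in the make-up of the cultures and a change of these genes within cells cannot be told apart in bulk RNA. The 9 fibroblast genes summed to 30144 to 31303 RPM in HOXB13 day 21, 26327 to 29133 in vector day 21, 16440.0 to 16751 in HOXB13 day 1 and 27752 to 28520.0 RPM in vector day 1 libraries. The 7 mesothelial genes summed to 78.4 to 93.5 RPM in HOXB13 day 21, 3731 to 3836 in vector day 21, 187 to 199 in HOXB13 day 1 and 1023 to 1062 RPM in vector day 1 libraries. The 6 epithelial genes summed to 1.06 to 1.71 RPM in HOXB13 day 21, 136 to 145 in vector day 21, 20.8 to 23.2 in HOXB13 day 1 and 238 to 251 RPM in vector day 1 libraries, with Krt5 at 0 in all groups but HOXB13 day 1. Mesothelial and epithelial sums were lower in HOXB13 than in vector libraries on both days. The 6 adipocyte genes summed to 359.9 to 367 RPM in HOXB13 day 21, 57.5 to 67.8 in vector day 21, 53.5 to 61.1 in HOXB13 day 1 and 10.6 to 12.9 RPM in vector day 1 libraries. The 4 brown adipocyte genes summed to 31.1 to 51.9 RPM in HOXB13 day 21 and 5.85 to 8.81 RPM in vector day 21 libraries. At day 1 the sums were 1.45 to 1.82 RPM in HOXB13 and 0.445 to 0.818 RPM in vector libraries. Of the 4, 2 reached 1 RPM in at least 3 libraries, and Ppargc1a was lower in HOXB13 than in vector libraries at day 21. Their mitochondrial uncoupler Ucp1 had no read in any group but HOXB13 day 1. The 6 macrophage genes summed to 63.9 to 72.5 RPM at day 21 and at most 5.18 RPM at day 1. The 5 endothelial genes summed to 4.78 to 5.53 RPM in HOXB13 day 21 and 31.8 to 34 RPM in vector day 21 libraries. Their day 1 sums were 5.53 to 6.39 RPM in HOXB13 and 14.3 to 14.8 RPM in vector libraries. A level of 1 RPM in at least 3 libraries was reached by 3 macrophage genes, 2 endothelial genes and 2 adipocyte genes. Adgre1 of the macrophage genes had no read in any group but vector day 21. The part of these marker differences in the respiratory gene levels was not tested.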

How the data were processed

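Messenger RNA was sequenced from 12 libraries, 3 in each of 4 groups, with a strand-specific mRNA kit, per the labels' protocols. The deposited table holds 1 value per gene and library, recorded here as a signal that the authors made from gene read counts by TMM scaling and that is called RPM (reads per 1000000 of effective library size). The submitters' processing notes name STAR, HTSeq, edgeR and DESeq2 without their steps, and name GRCh38 although the gene identifiers are mouse Ensembl ones. The authors' mouse build was not given in the sources used here. Each library's values were whole multiples of its lowest value above 0 (100% within 0.01), so reads were recovered. The design had assumed RPM values, and the tests were kept.

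Genes were placed with GENCODE M21 (GRCm38), which matched 55480 identifiers, and windows of 50 bases were searched in all its genes. limma 3.58.1 (R 4.3.3, trended empirical Bayes) was fitted to log2(RPM + 1) of all 12 libraries with 1 mean per group, after dropping genes that reached 1 RPM in fewer than 3 libraries, and p-values were adjusted by Benjamini-Hochberg over 13516 genes with a threshold of 0.05. Fold changes of low genes are understated on this scale. The comparisons were 2 between viruses, 2 between days and the interaction. The scripts were tested on simulated data with known changes. Alternatives were pseudocounts of 0.25 and 4, no filter, a filter of 5 RPM, 4 other scalings, edgeR 4.0.16 and DESeq2 1.42.0 run on those reads, a block for replicate number, the compared libraries alone, omission of chromosomes X and Y, and omission of each library. On the recovered reads, edgeR called 9755 of those genes between the viruses at day 21, 9901 at day 1, 10949 over time in HOXB13 cells, 11227 in vector cells and 8611 in the interaction (adjusted p under 0.05).

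Libraries of equal replicate number showed no shared deviation: correlations of deviations over 10682 genes were -0.0749 to 0.0683 between libraries of equal number and -0.0731 to 0.0535 between the rest. These values cannot show whether libraries of equal number were set up or handled together. Genes named were every mitochondrial gene, in each comparison the 5 highest and 5 lowest fold changes among called nuclear-encoded genes with at least 5 RPM in the higher group, isoform families, Sdha to Sdhd, X-linked genes, and up to 4 called genes with the largest change in each other list. The genes and lists were chosen with earlier results of these data known. There were 0 columns of no sample.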

Additional observations from a re-analysis of the deposited data

Results flagged for a closer look

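The change between day 21 and day 1 differed between HOXB13 and vector cells, by the interaction term of limma (adjusted p under 0.05), for 7 of the 7 tested mitochondrial-encoded genes and 52 of the 87 nuclear-encoded genes. Of all tested genes 68.2% were called there, a larger share than of the nuclear-encoded genes. Values are log2 changes in HOXB13 cells minus those in vector cells. Among mitochondrial-encoded genes they were -0.93 for mt-Nd2, -0.83 for mt-Nd1, -0.69 for mt-Co1, -0.49 for mt-Nd5, -0.43 for mt-Nd4 and -0.23 for mt-Cytb, against 0.44 for the light-strand gene mt-Nd6. In complex I they were -0.94 for Ndufv3, -0.79 for Ndufa5 and -0.72 for Ndufa6. Among its assembly factors they were -0.93 for Ndufaf3, 0.68 for Ndufaf2 and 0.56 for Ndufaf4. Uqcrq of complex III had 0.38 and Cox7c of complex IV 0.44. Of the c subunit genes of ATP synthase, Atp5g1 had -0.64 and Atp5g3 0.21, the Atp5g3 value turning negative under other scalings.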

How the results depend on the processing

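Of 3500 alternative values for single named genes, 3381 kept direction and call, 89 kept direction without the call and 30 changed sign. Libraries of equal replicate number showed no shared deviation. With a replicate block 7 mitochondrial and 49 nuclear-encoded genes were called between the viruses at day 21, 4 and 50 at day 1, 7 and 59 over time in HOXB13 cells, 7 and 67 in vector cells, and 7 and 52 in the interaction. Quantile normalization gives every library the same set of values. It moved the median of mitochondrial minus that of nuclear-encoded genes to -0.39 at day 21 (otherwise -0.28), 0.35 at day 1 (-0.09), -0.024 over time in HOXB13 cells (0.64) and -0.79 in the interaction (-0.32). Over time in HOXB13 cells it also turned mt-Nd1 to -0.063, mt-Nd2 to -0.23, mt-Co1 to -0.29, mt-Nd5 to -0.034 and mt-Cytb to -0.13. Without the TMM factors 4 mitochondrial genes were called in HOXB13 cells. Values that changed sign without the TMM factors, with quantile normalization and with scaling to nuclear-encoded reads, in that order, were at day 1 0.042, 0.0042 and 0.045 for Atp5g3, 0.11, 0.025 and 0.11 for Cox8a, and 0.072, 0.47 and 0.075 for mt-Cytb. In the interaction they were -0.075, -0.048 and -0.092 for Atp5g3 and -0.15, -0.068 and -0.16 for Cox6a1. Without the TMM factors and with scaling to nuclear-encoded reads, Cox7a2l turned to 0.087 and 0.091 at day 1, and over time in HOXB13 cells Cox4i1 turned to -0.073 and -0.068, Cox8a to -0.027 and -0.021, Cox6b1 to -0.058 and -0.052, and Sdhc to -0.11 and -0.10. With overlapping or copied mitochondrial genes left out, which leaves 2 mitochondrial genes over the same nuclear-encoded subunits, the read ratio was 1.09 in HOXB13 day 21, 1.59 in vector day 21, 0.628 in HOXB13 day 1 and 0.688 in vector day 1 libraries. Leaving out 1 library at a time, the mitochondrial genes called numbered 6 to 7 at day 21 and 6 to 7 over time in vector cells, and the nuclear-encoded ones 47 to 52 at day 21, 42 to 52 at day 1, 56 to 61 over time in HOXB13 cells, 62 to 69 in vector cells and 48 to 54 in the interaction. The difference of medians then ran -0.33 to -0.24 at day 21, -0.12 to -0.07 at day 1, 0.61 to 0.65 in HOXB13 cells, 1.03 to 1.11 in vector cells and -0.37 to -0.26 in the interaction. The read ratio ran 2.74 to 2.81 in HOXB13 day 21, 3.61 to 3.87 in vector day 21, 1.69 to 1.73 in HOXB13 day 1 and 1.65 to 1.72 in vector day 1. The cause of these changes was not tested.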
